A study of Mus musculus with 24 samples.

Results

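Notch signalling in brain endothelium was followed through 8 genes: the receptors Notch1 and Notch4, the ligands Dll4, Jag1 and Jag2, the targets Hes1 and Heyl, and Rbpj, the DNA-binding factor of the pathway. They were chosen by gene symbol among 53465 listed genes, and all 8 were among the 15493 genes that 6 libraries of either genotype held at 5 reads or more. The RNA-seq libraries were made from brain cells of C57BL/6J mice sorted with an antibody to CD31, a surface protein of endothelial cells. Controls were Bmal1fl/fl mice (12 libraries) and mutants were Bmal1fl/fl; Tie2cre mice (12 libraries), with 2 mice of each genotype at each of 6 zeitgeber times (ZT2, ZT6, ZT10, ZT14, ZT18 and ZT22) and 1 library per mouse. Controls carried the floxed allele too, without Cre. The Tie2 (Tek) promoter is active in endothelial cells and also in part of the blood lineage, so recombination need not be limited to the vessel wall. Ages were not given in the sources used here for these mice.

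In Notch signalling, a ligand on one cell binds a receptor on its neighbour, the receptor is cut, and its intracellular part enters the nucleus and joins Rbpj to switch on targets such as the Hes and Hey repressors. In blood vessels, Dll4 and Notch1 restrain sprouting and support arterial identity, Notch4 is a receptor largely of endothelium, and Jag1 is a ligand shared by endothelial and mural cells. Heyl is known as a target in mural cells as well. Bmal1 (listed as Arntl) is the core clock activator, which binds E-boxes.

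Library totals, which the authors had brought together by normalization, lay between 6136404 and 6648311 reads. Arntl ran from 1 to 468 reads in controls, with the 6 libraries of ZT2, ZT18 and ZT22 at 234 or more and the 4 of ZT10 and ZT14 at 22 or fewer, and from 81 to 354 in mutants. These reads cover the whole gene and do not isolate the deleted exon. The 8 libraries of ZT6 and ZT18, which carry consecutive library numbers, stood apart from the 16 of the other times: mitochondrial reads made up 2.68 to 3.90% of them against 5.78 to 17.4%, and 6 microglial markers summed to 523 to 986 TMM-scaled reads against 5933 to 16940. Library series and time of day cannot be told apart for these 2 time points. The 10 endothelial markers, Pecam1 and Cdh5 among them, summed to 100268 to 113107 in the ZT6 and ZT18 libraries and 66513 to 95488 in the others, without overlap, and none was at 0 in any library. In sorted cell pools, fewer cells of a type and less RNA per cell cannot be told apart.

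Stretches upstream of the annotated starts are given for 3 members. Dll4 and Notch4 were taken because their differences between times held whichever mouse was left out. Within the 16 libraries of the other times, only that of Notch4 passed. Rbpj was taken because its stretch holds the letters that Rbpj protein itself binds. The stretches are from RefSeq (GRCm38.p6), plus strand, 5′ to 3′. Each starts 250 bases before a start site and ends before the next annotated exon base, and capitals mark TGGGAA. The Rbpj stretch precedes a start site inside the gene's annotated span (chr5:53466152-53657362), so it is not upstream of the whole gene.
Dll4 chr2:119325534-119325783: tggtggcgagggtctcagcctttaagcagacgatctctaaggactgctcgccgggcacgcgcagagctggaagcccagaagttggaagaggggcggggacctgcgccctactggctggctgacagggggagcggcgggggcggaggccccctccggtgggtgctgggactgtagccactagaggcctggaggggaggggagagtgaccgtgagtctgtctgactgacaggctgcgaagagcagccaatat
Notch4 chr17:34564045-34564267: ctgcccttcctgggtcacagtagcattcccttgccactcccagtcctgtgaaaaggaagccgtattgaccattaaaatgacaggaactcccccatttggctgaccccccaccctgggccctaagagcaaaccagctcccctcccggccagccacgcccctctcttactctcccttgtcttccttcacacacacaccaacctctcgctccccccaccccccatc
Rbpj chr5:53590096-53590213: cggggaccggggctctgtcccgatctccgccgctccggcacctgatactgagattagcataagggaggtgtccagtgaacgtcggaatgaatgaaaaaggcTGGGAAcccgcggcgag
Promoter windows were matched for 6 of the 8 members (7 windows, as Rbpj has 2 start sites), all but Hes1 and Heyl. In the 250 bases before the start, both strands, the E-box CACGTG was in none of the 7 windows and in 6.02% of all 32851 windows. The Rbpj core TGGGAA was in both Rbpj windows, which overlap, and in 21.6% of all. The half-site AGGTCA, bound by the REV-ERB and ROR receptors, was in none and in 14.0% of all, and the ETS core CCGGAA was in none and in 12.0% of all.

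All 8 members were detected in every library. Levels between genes were compared per kb of exon, in TMM-scaled reads. These are reads divided by library total times edgeR's trimmed-mean factor and brought to a common scale. In controls the order was Jag2 (269 ± 42 per kb, SD, n = 12), Notch1 (265 ± 35), Dll4 (216 ± 57), Notch4 (164 ± 34), Jag1 (150 ± 22), Hes1 (121 ± 63), Heyl (40.3 ± 14.7) and Rbpj (24.2 ± 7.0). Jag2 and Notch1 could not be ordered: Jag2 was the higher in 7 of 12 controls, and the log2 ratio per mouse averaged 0.02 ± 0.15 (SD). Notch1 and Dll4 (Notch1 above in 10 of 12 mice, log2 ratio 0.33 ± 0.35), Dll4 and Notch4 (9 of 12), Notch4 and Jag1 (8 of 12) and Jag1 and Hes1 (9 of 12) also overlapped within their spread. The step from Hes1 to Heyl held in 11 of 12 control mice and 12 of 12 mutants, and that from Heyl to Rbpj in 11 and 9. Mutants gave the same order except that Notch1 (291 ± 61) and Jag2 (281 ± 63) changed places, a pair that did not differ beyond its spread in either genotype. The lengths are of exons merged over all annotated transcripts (GENCODE vM21), from 2.04 kb for Hes1 to 14.2 kb for Notch1, and the counts were made with Ensembl v91 models.

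**Figure D1:**
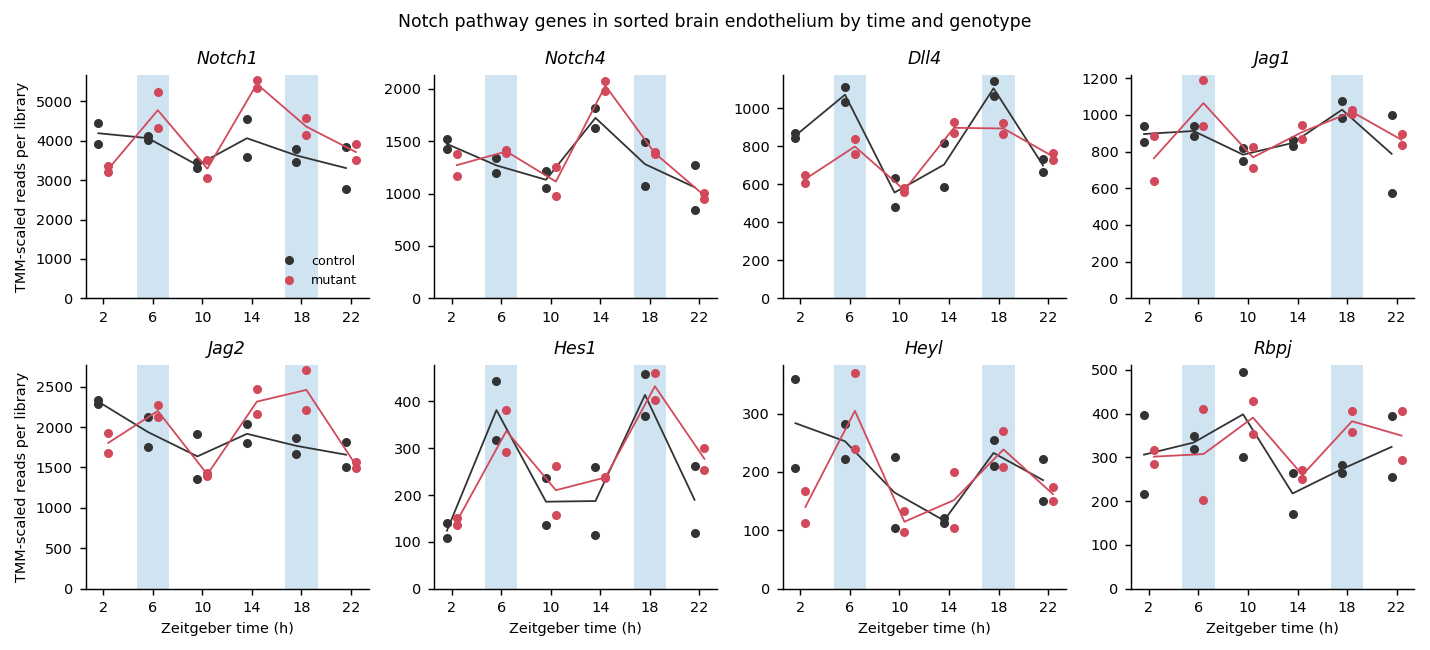
TMM-scaled reads per library (y axis, from 0) against zeitgeber time in h (x axis) for the 8 genes. Each point is 1 mouse (black control, red mutant), lines join the means of 2 mice, and blue bands mark the ZT6 and ZT18 libraries. Notch4 is highest at ZT14 in both genotypes (1628 to 2074), and Hes1 is high in the banded libraries (291 to 461).

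The first comparison asked whether loss of Bmal1 changed the level of the pathway. No member passed the test between genotypes (edgeR quasi-likelihood test with time point in the model, Benjamini-Hochberg adjusted over 15493 genes, n = 12 and 12), where 42 of all genes (0.271%) did. None of the 8 was below an unadjusted p of 0.05 either, against 1077 of all genes. The median log2 difference, mutant minus control, was 0.04 over the members and 0.00 over all genes. The i5 index of the library barcode was not balanced, with 8 of 12 controls on one index and 8 of 12 mutants on the other. At ZT2 and ZT10 the genotypes carried different indexes, and at each other time they shared an index. With time point and index in the model, the genotype difference thus rested on ZT6, ZT14, ZT18 and ZT22. In that fit the members' median was 0.15, no member passed and 7 of all genes did. Notch1 (0.27 ± 0.08, unadjusted p = 0.0031, edgeR adjusted p = 0.35) and Jag2 (0.20 ± 0.09, unadjusted p = 0.036, adjusted 0.66) were below an unadjusted p of 0.05, against 1119 of all genes.

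Among the receptors, Notch1 ran from 2781 through a median of 3816 to 4545 TMM-scaled reads in controls and from 3063 through 4032 to 5543 in mutants. The groups overlapped, with 4 mutant libraries above every control, and the log2 difference was 0.12 ± 0.08 (SE, edgeR adjusted p = 0.84). Notch4 ran from 848 through 1306 to 1816 in controls and from 950 through 1375 to 2074 in mutants, a log2 difference of 0.02 ± 0.08. The genotypes overlapped, with 2 mutant libraries above every control.

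Among the ligands, Dll4 ran from 481 through 831 to 1144 in controls and from 559 through 762 to 925 in mutants (log2 difference -0.12 ± 0.09, adjusted p = 0.86 by edgeR). The highest controls, all from ZT6 and ZT18, lay above every mutant. Jag1, at 576 through 873 to 1075 against 639 through 891 to 1189, differed by 0.03 ± 0.08. Jag2, at 1354 through 1838 to 2338 against 1399 through 2026 to 2705, differed by 0.04 ± 0.09. For both Jagged ligands the ranges of the genotypes overlapped.

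Of the nuclear members, Hes1, a transcriptional repressor, ran from 108 through 248 to 459 in controls and from 136 through 258 to 461 in mutants (0.19 ± 0.15). Heyl, a related repressor, ran from 104 through 216 to 360 in controls and from 97 through 171 to 370 in mutants (-0.17 ± 0.17). Rbpj ran from 170 through 292 to 496 in controls and from 204 through 335 to 429 in mutants (0.11 ± 0.13). The genotypes overlapped in each of the 3.

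**Figure D2:**
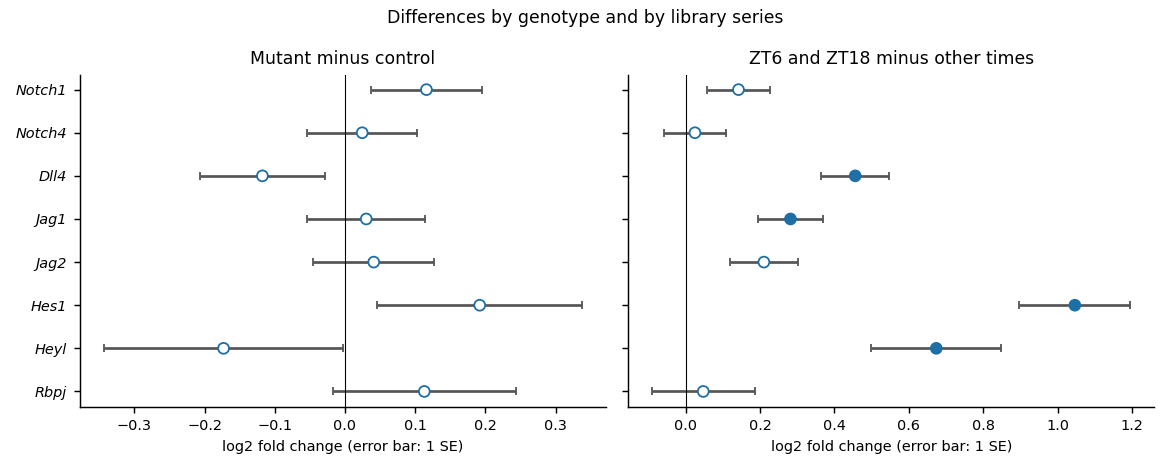
log2 fold change (x axis) with 1 SE for the 8 genes, mutant minus control on the left and ZT6 and ZT18 minus the other times on the right. Filled points passed an adjusted p of 0.05: none on the left, and Hes1 (1.05), Heyl (0.67), Dll4 (0.46) and Jag1 (0.28) on the right.

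The second comparison asked whether the members cycled over the day. No member was rhythmic by meta2d at the q of 0.6 that the study used, in controls (48 of 15493 genes, 0.31%) or in mutants (6 genes, 0.0387%). The smallest meta2d p of a member was 0.713 in controls (Heyl) and 0.559 in mutants (Dll4). A cosine fitted with edgeR gave smallest unadjusted p-values of 0.071 in controls (Heyl) and 0.091 in mutants (Notch4), both with an adjusted p of 1.00. A least-squares cosine of the log2 values put the amplitude at 0.47 and the peak at ZT1.69 for Heyl in controls, and at 0.26 and ZT13.2 for Notch4 in mutants. ZT6 and ZT18 lie at opposite phases of a 24-h cycle, so a shift of both against the other times cannot be fitted as a 24-h rhythm. Such a shift adds to the spread in meta2d and the cosine fits, and whether it hid a rhythm was not tested. No member and no other gene was called for a difference in rhythm between genotypes (edgeR, 0% called), with unadjusted p from 0.233 for Jag2 to 0.935 for Jag1 and 660 genes below 0.05 over all. Alternatives called 52 genes with no filter on low counts, 5 within the 16 libraries of the other times and 1 each with DESeq2, with mural markers, with microglial markers and without the control ZT22 replicate 2, and no member in any of them. Within those 16 libraries 2 of the 8 members were below an unadjusted edgeR p of 0.05, as were 889 of 15493 genes.

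Allowing any shape, 6 of the 8 members differed between time points (edgeR adjusted p under 0.05), where 2070 of all genes (13.4%) did. Hes1 had the smallest adjusted p (7.5e-05), followed by Notch4 (0.00023), Dll4 (0.0025), Heyl (0.041), Jag2 (0.043) and Notch1 (0.0499). Jag1 (0.25) and Rbpj (0.30) did not pass. Leaving out 1 mouse in turn kept the calls of Hes1, Notch4 and Dll4 in all 24 fits, while that of Notch1 was lost in 20, that of Heyl in 15 and that of Jag2 in 14.

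A test of ZT6 and ZT18 against the other times called 4 members, all higher in the ZT6 and ZT18 libraries (edgeR adjusted p under 0.05). Jag1, which had not passed for a difference of any shape, was among them. Over all genes 2890 (18.7%) passed this test and 1117 (7.21%) did so in that direction. The median log2 difference was 0.25 over the members and 0.01 over all genes. The ZT6 and ZT18 libraries all carried the same i5 index, as did the controls of ZT2 and ZT10 and no others. No fit with the index was run for this comparison.

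Hes1 gave, in the 2 mice of each time, 444 and 319 TMM-scaled reads at ZT6 and 370 and 459 at ZT18 in controls, and 382 and 291 at ZT6 and 404 and 461 at ZT18 in mutants. At the other times it gave 140 and 108 (ZT2), 135 and 236 (ZT10), 261 and 114 (ZT14) and 262 and 118 (ZT22) in controls, and 136 and 151, 263 and 158, 235 and 239, and 301 and 253 in mutants. All 4 control libraries of ZT6 and ZT18 lay above all 8 other controls, and 3 of the 4 mutant libraries lay above all 8 other mutants. The log2 difference was 1.05 ± 0.15 (SE, edgeR adjusted p = 2.9e-06).

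Dll4 showed the same separation in controls, with 1112 and 1031 at ZT6 and 1144 and 1065 at ZT18 against 843 and 869 (ZT2), 481 and 632 (ZT10), 587 and 819 (ZT14) and 732 and 665 (ZT22). In mutants it gave 840 and 758 at ZT6 and 925 and 862 at ZT18, against 608 and 647, 580 and 559, 925 and 869, and 726 and 767. The mutant ranges overlapped, with both ZT14 libraries and 1 ZT22 library above the lower ZT6 library. The log2 difference over both genotypes was 0.46 ± 0.09 (edgeR adjusted p = 0.00041). Hes1 and Dll4 were 2 of 8 members whose control libraries of ZT6 and ZT18 lay above all other controls, as did 1.48% of all genes.

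Heyl ran from 208 through 247 to 370 in the 8 libraries of ZT6 and ZT18 and from 97 through 150 to 360 in the other 16 (0.67 ± 0.18, edgeR adjusted p = 0.0054). One control mouse of ZT2 reached the top of the range outside the series. In mutants Heyl ran from 208 to 370 at ZT6 and ZT18 and from 97 to 199 at the other times. The share of all genes that separate in this way in mutants was not counted. Jag1 ran from 885 through 993 to 1189 against 576 through 844 to 999 (0.28 ± 0.09, edgeR adjusted p = 0.022), with 4 of 8 libraries above all 16 others. Without the first mutant mouse of ZT6, the Jag1 difference was 0.24 and its adjusted p 0.069.

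Jag2 (0.21 ± 0.09, edgeR adjusted p = 0.11), Notch1 (0.14 ± 0.08, 0.28), Rbpj (0.05 ± 0.14, 0.88) and Notch4 (0.03 ± 0.08, 0.90) did not pass. Jag2 passed without the second control mouse of ZT10 (0.24, adjusted p = 0.044) or of ZT18 (0.26, adjusted p = 0.0496).

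Lists of markers moved with the same split. The endothelial sum, given above, was higher at ZT6 and ZT18, with a median of 106656 against 82904. The 10 mural markers (Pdgfrb, Rgs5 and others) summed to 15929 to 26659 TMM-scaled reads at ZT6 and ZT18 and to 10688 to 20180 at the other times. With their sum in the model, 603 of all genes (3.89%) differed between the series, 65 higher at ZT6 and ZT18 and 538 lower. Of the members Hes1 passed (1.02 ± 0.27, edgeR adjusted p = 0.024), Dll4 was at 0.55 ± 0.17 (adjusted p = 0.068), and Heyl (0.06 ± 0.30) and Jag1 (-0.04 ± 0.15) were near 0. The 8 astrocyte markers summed to 4694 to 8114 against 10574 to 21464, the 6 oligodendrocyte markers to 2053 to 4422 against 5123 to 18770, and the 5 neuronal markers to 42.8 to 96.2 against 101 to 689. The 10 arterial markers summed to 4383 to 6233 against 2335 to 6113, with overlap. Immediate-early genes that tissue dissociation is known to induce (11 genes, Fos and Jun among them) summed to 62638 to 85091 against 22269 to 88434, ranges that overlapped. No marker of any list was at 0 in all libraries. With the microglial sum in the model instead, 0 of 8 members and 0 of 15493 genes were called between the series. The microglial sum separated the series fully (523 to 986 against 5933 to 16940 TMM-scaled reads). That fit can therefore hardly tell series from markers. Apart from the mural fit, the part of these cell types in the members' differences was not tested in this comparison.

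Within the 16 libraries of ZT2, ZT10, ZT14 and ZT22, Notch4 alone of the members differed between time points (edgeR adjusted p = 0.0025), where 176 of all genes (1.14%) did. It stood at 1628 and 1816 in controls and 1982 and 2074 in mutants at ZT14, against 1423 and 1524, and 1375 and 1167, at ZT2. It was 1211 and 1052, and 1251 and 977, at ZT10, and 1274 and 848, and 950 and 1010, at ZT22. The 4 libraries of ZT14 lay above all 20 others, as they did for 0.123% of all genes. Before TMM scaling the lowest ZT14 library had 1500 reads and the highest other library 1571. Control libraries of ZT14 held the most mitochondrial reads (17.4 and 15.3%, against 7.89 and 10.7% in ZT14 mutants), and the part of this in Notch4 was not tested.

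Notch1, the other receptor, was 5543 and 5338 in mutants and 3583 and 4545 in controls at ZT14, and 3308 and 3456 in controls and 3517 and 3063 in mutants at ZT10. Within the 16 libraries its adjusted p was 0.25 (unadjusted 0.010), and that of Jag2 was 0.15 (unadjusted 0.0037). Between ZT6 and ZT18 no member differed (9 of all genes, 0.0581%), with Hes1 at 0.24 ± 0.18 and Heyl at -0.24 ± 0.21 on the log2 scale, ZT18 minus ZT6.

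Genotype was then compared within each series. In the ZT6 and ZT18 libraries Dll4 was 1088 ± 50 (SD, n = 4) in controls and 846 ± 69 in mutants, and the groups did not overlap (log2 difference -0.37 ± 0.13). Notch1 was 3847 ± 294 in controls and 4568 ± 478 in mutants, again without overlap (0.24 ± 0.11). Jag2 was 1853 ± 201 against 2331 ± 257 (0.32 ± 0.12), and 3 of 4 mutants lay above every control. Separate genotypes in these libraries were seen for 2 of 8 members and for 3.43% of all genes. None of the 3 differences passed adjustment (edgeR adjusted p = 0.71 for Dll4, 0.80 for Jag2 and 0.87 for Notch1, from unadjusted p of 0.0069, 0.012 and 0.030), where 3 genes of all (0.0194%) did. Over all genes 859 of 15493 were below an unadjusted p of 0.05 in this fit.

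In the other 16 libraries the same genes gave Dll4 704 ± 137 against 710 ± 136 (SD, n = 8), Notch1 3736 ± 587 against 3932 ± 966, and Jag2 1882 ± 345 against 1766 ± 387. The log2 differences were 0.00 ± 0.12, 0.05 ± 0.11 and -0.11 ± 0.11, and no member passed (28 of all genes, 0.181%, did). The interaction of genotype with series, a test added after the data were seen, called no gene (edgeR, 0%, with 678 at an unadjusted p under 0.05). It gave unadjusted p = 0.015 for Jag2 (log2 0.43 ± 0.17) and 0.044 for Dll4 (-0.37 ± 0.18), with adjusted p of 1.00.

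**Figure D3:**
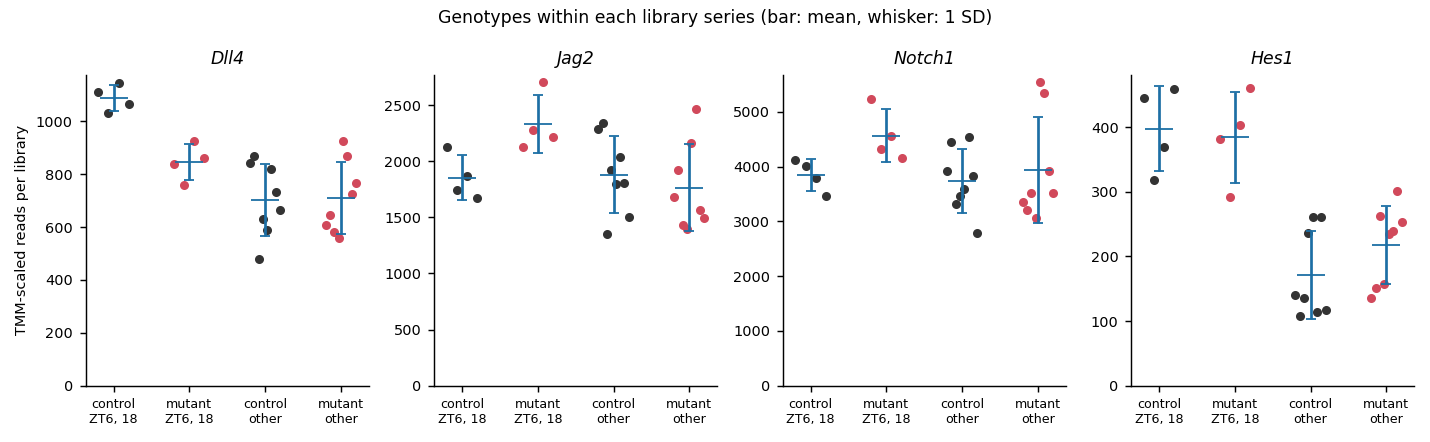
TMM-scaled reads per library (y axis, from 0) of Dll4, Jag2, Notch1 and Hes1 in controls (black) and mutants (red), split into the ZT6 and ZT18 libraries and the other 16. Points are mice, blue bars the mean and whiskers 1 SD. Dll4 separates the genotypes at ZT6 and ZT18 (1031 to 1144 against 758 to 925) and not at the other times.

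The members were also set against summed marker lists over libraries, as log2 values (8 members by 4 lists, 32 relations, 100000 permutations, p adjusted over the 32). Over 24 libraries 13 relations passed for r, among them 5 with the arterial list, 3 with the mural list, 4 with the astrocyte list and 1 with the dissociation-induced genes. The share of all genes that follow these lists was not counted, so these counts have no background. Jag1 followed the 10 arterial markers (Bmx, Gkn3, Sema3g and others), with Pearson's r = 0.76 (permutation p = 7.0e-05, adjusted 0.00075) and Spearman's rho = 0.74 (permutation p = 8.0e-05, adjusted 0.00085) over 24 libraries. Without the 2 libraries farthest from the median r was 0.56 (adjusted permutation p = 0.033). Within the 16 libraries of the other times r was 0.80 (adjusted permutation p = 0.022) and rho 0.70 (adjusted 0.052), and within the 8 of ZT6 and ZT18 r was -0.25 (adjusted exact permutation p = 0.94). This was the only relation of the 32 that passed for r in the 16 libraries, and none passed in the 8. Dll4 (r = 0.62, adjusted permutation p = 0.0050, rho = 0.60, adjusted 0.011) and Hes1 (r = 0.58, adjusted permutation p = 0.0072, rho = 0.59, adjusted 0.011) followed the arterial list over 24 libraries but not within the 16 (r = 0.53 and 0.40, adjusted permutation p = 0.18 and 0.32). Notch1 (r = 0.49, adjusted permutation p = 0.039) and Jag2 (0.55, adjusted permutation p = 0.014) passed for r but not for rho (0.37 and 0.39, adjusted 0.15 and 0.13). Without the 2 libraries farthest from the median of the arterial sum, r was 0.64 for Dll4 and 0.50 for Hes1, which still passed. It was 0.19 for Notch1 and 0.41 for Jag2, which did not pass. By rank alone, Heyl passed too (rho = 0.51, adjusted permutation p = 0.032, against r = 0.40, adjusted 0.0998), though not without the 2 farthest libraries (rho = 0.44, adjusted permutation p = 0.094). Deviations from the mean of each genotype and time are mirrored within the 2 mice of a group, so they were tested over the 12 pairs by all 4096 swaps of mice within pairs. None of the 32 relations passed in them after adjustment, and 1, Jag1 with the mural list, had an unadjusted exact permutation p under 0.05. With the arterial list r was 0.73 for Jag1 (exact permutation p = 0.17), 0.67 for Hes1 (exact permutation p = 0.18), 0.65 for Notch1 (exact permutation p = 0.15), 0.59 for Notch4, 0.49 for Jag2 and 0.36 for Dll4 (adjusted exact permutation p from 0.59 to 0.73 for these 6). Of the arterial markers, Efnb2 and Hey1 are Notch targets themselves.

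Hes1 also followed the dissociation-induced genes, with r = 0.78 (adjusted permutation p = 0.00032) and rho = 0.78 (adjusted 0.00064) over 24 libraries and r = 0.73 without the 2 farthest (adjusted permutation p = 0.0038). Within the 16 libraries r was 0.69 (adjusted permutation p = 0.072, rho = 0.72, adjusted 0.052), within the 8 it was 0.56 (adjusted exact permutation p = 0.54), and in deviations it was 0.61 (exact permutation p = 0.066, adjusted 0.59). Over the 24 libraries r with these genes was -0.26 for Notch4, 0.02 for Notch1 and 0.41 for Jag1, and in deviations it was 0.72, 0.53 and 0.53 (adjusted exact permutation p = 0.59, 0.65 and 0.75), none of which passed. Without the 2 farthest libraries, r for Jag1 was 0.50 (adjusted permutation p = 0.049) and rho 0.50 (adjusted 0.053). For Rbpj r was 0.43 over 24 libraries (adjusted permutation p = 0.085) and 0.67 without the 2 farthest (adjusted permutation p = 0.0050), while rho was 0.53 (adjusted permutation p = 0.028) and 0.70 (adjusted 0.0039), and r of its deviations was 0.25 (adjusted exact permutation p = 0.73). The mural list was followed over 24 libraries by Hes1 (r = 0.69, adjusted permutation p = 0.0024, rho = 0.72, adjusted 0.0012), Jag1 (r = 0.64, adjusted permutation p = 0.0032, rho = 0.67, adjusted 0.0034) and Heyl (r = 0.57, adjusted permutation p = 0.012, rho = 0.56, adjusted 0.016). Without the 2 farthest libraries these r were 0.65, 0.53 and 0.51. They were 0.33, 0.27 and 0.17 within the 16 libraries, and within the 8 they were -0.12, 0.60 and 0.40, none of which passed. In deviations r was 0.69 for Jag1 (exact permutation p = 0.031, adjusted 0.59), 0.54 for Heyl (exact permutation p = 0.065, adjusted 0.59) and 0.24 for Hes1 (exact permutation p = 0.48, adjusted 0.73). Astrocyte sums fell into separate clusters by series, so no pooled r is given for the 4 relations that passed with them. Their r within the 16 libraries was -0.56 for Hes1, -0.37 for Jag1, -0.22 for Dll4 and -0.01 for Heyl, and within the 8 it was 0.08, 0.62, -0.01 and 0.66, none of which passed.

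The genes whose pattern was most like a member's over the 24 libraries were searched among 9893 genes with a mean of 50 or more TMM-scaled reads, by Pearson's r of log2 values, as a description. Notch1 and Notch4 shared the closest gene, Map4k2, a kinase (r = 0.85 for both), followed for Notch1 by Caskin2 (0.84) and Helz2 (0.81) and for Notch4 by Shank3 (0.82) and Rasgrp2 (0.80). Jag1 was closest to Esm1 (0.90), a secreted proteoglycan of endothelial tip cells, then to Efnb2 (0.82), the arterial ephrin, and Snrk (0.81). Dll4 was closest to Mpzl1 (0.81), Ppp1r16b (0.80) and Ephb4 (0.79), the receptor of ephrin-B2. Jag2 was closest to Rapgef3 (0.85), Egfl7 (0.85), an endothelial secreted protein whose gene neighbours Notch1, and Lamb2 (0.82). Hes1 was closest to Sertad1 (0.89), Nr4a2 (0.85) and Sgk1 (0.85), a glucocorticoid-inducible kinase. Heyl was closest to Ypel2 (0.79), Tbc1d1 (0.77) and Vstm4 (0.76), and Rbpj to Ddx21 (0.79), Anapc1 (0.68) and Trafd1 (0.65).

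Among the members themselves, Notch1 and Notch4 moved together over the 24 libraries (r = 0.78), within the 16 (0.83) and within the 8 (0.58), and in deviations from the mean of each genotype and time (0.69). Notch1 and Jag2 (0.75) and Jag1 and Hes1 (0.68) followed over the 24. Dll4 and Notch1 gave r = 0.78 within the 16 libraries and -0.64 within the 8, where their genotype differences pointed opposite ways. Rbpj gave r from -0.30 to 0.08 against the receptors and ligands over the 24. These libraries share their mice, scaling and cell makeup.

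The wider pathway was taken from a list of 54 genes, of which 48 were tested. None passed between genotypes, with the smallest unadjusted p for Numb, which antagonises Notch (0.013, log2 0.22 ± 0.08, adjusted 0.53 by edgeR), and Adam17, a receptor protease (0.0496, 0.18 ± 0.09). None passed for a difference in rhythm, where Adam17 (unadjusted p = 0.021) and Lfng, which adds sugars to the receptors (0.044), came first. None was rhythmic by meta2d in either genotype. Between time points 7 of 48 passed, against 13.4% of all genes: Neurl3, Dtx4, Neurl1a, Efnb2, Notch2, Maml3 and Nedd4.

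Between the ZT6 and ZT18 libraries and the others 9 of the 48 passed, against 18.7% of all genes, and 3 were higher at ZT6 and ZT18. These 3 were Efnb2 (0.53 ± 0.10, edgeR adjusted p = 0.00022), Notch3, the mural receptor, which is also on the mural marker list (0.44 ± 0.14, 0.026), and Nedd4, a ubiquitin ligase (0.26 ± 0.06, 0.0027). The other 6 were lower. Neurl3 ran from 0 to 18.7 TMM-scaled reads at ZT6 and ZT18 and from 43.7 to 227 at the other times. Dtx4 ran from 33.8 to 121 against 193 to 583, and Neurl1a from 0 to 14.7 against 16 to 90.1. None of these ranges overlapped, but the share of all genes separated in this way was not counted. Over all genes 1773 of 15493 were called lower at ZT6 and ZT18. Neuralized and Deltex proteins are ubiquitin ligases. Notch2, a receptor (log2 difference -0.68 ± 0.13), Maml3, a coactivator (-0.65 ± 0.14), and Dtx1 (-1.82 ± 0.56) were lower too. The summed microglial, astrocyte, oligodendrocyte and neuronal markers, given above, were all lower in the same libraries. Their part in these differences cannot be told apart from the series.

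Of the targets always described, Hey1 (0.33 ± 0.13, edgeR adjusted p = 0.095), Nrarp (0.41 ± 0.18, 0.12) and Hey2 (-0.13 ± 0.23, 0.79) did not pass between the series. The ligand Dll1 did not either (0.25 ± 0.23, 0.55). Their genotype differences on the log2 scale were 0.00 ± 0.13 for Hey1, -0.03 ± 0.17 for Nrarp, -0.08 ± 0.22 for Hey2 and 0.25 ± 0.22 for Dll1.

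The 8 genes lie on GRCm38 at chr2:26457903-26516663 (Notch1), chr17:34564268-34588503 (Notch4), chr2:119325784-119335962 (Dll4), chr2:137081456-137116644 (Jag1), chr12:112907819-112929776 (Jag2), chr16:30064384-30067796 (Hes1), chr4:123233556-123249875 (Heyl) and chr5:53466152-53657362 (Rbpj). Notch1, Notch4, Dll4 and Rbpj overlap annotated genes on the opposite strand. Those had a median of 0 reads, or 5 for Gm14207, which overlaps Dll4.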

How the data were processed

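The authors aligned reads from strand-specific libraries to GRCm38 with STAR 2.5.3a, merged lanes with SAMtools 1.3.1 (versions per the submitters' processing notes) and normalized and quantified genes with PORT on Ensembl v91 models. The deposited values are whole-number counts per gene and library that PORT had brought to similar totals, so the original depth is not given by them and counting error covers these reads only. Genotype, time and replicate came from the sample labels.

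A gene was kept when 6 libraries of either genotype held 5 reads or more. Tests used edgeR 4.0.16 in R 4.3.3 (TMM factors, quasi-likelihood, common dispersion 0.179, Benjamini-Hochberg over all kept genes), with DESeq2 1.42.0 and limma 3.58.1 as alternatives. Time and genotype entered one fit over 24 libraries. Rhythms were called for each genotype apart at a meta2d q under 0.6, from a rewrite of meta2d (pandas 2.3.3, SciPy 1.17.1 and NumPy 2.4.6 under Python 3.11.15). Figures used matplotlib 3.10.9. The edgeR, meta2d and permutation tests were tested on simulated data. Replicates are separate mice, and no pair was alike within counting noise.

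Genes named are the 8 members, the wider-list genes that passed a test, and Notch2, Notch3, Dll1, Hey1, Hey2, Nrarp and Efnb2. Also named are the 2 wider-list genes with the smallest p for genotype and for a difference in rhythm between genotypes. The members and gene lists were chosen with earlier results of these data known.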

Additional observations from a re-analysis of the deposited data

How the results depend on the processing

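Counts of members called were the same for genotype (0 of 8) and for the difference in rhythm between genotypes (0) under DESeq2 size factors, no TMM, no or a stricter filter, DESeq2, limma-trend, the covariates run for each and leaving out each mouse. For rhythm in either genotype (0) they were the same with TMM rescaling, a stricter filter, q under 0.05, the edgeR cosine with and without the block, and leaving out each mouse, the alternatives run for it. Members that differed between time points numbered 6 (2070 of all genes). The count was 5 with DESeq2 size factors (2031 of all genes), 5 with limma-trend (2392) and 4 with deposited totals and no TMM (2151). It was 2 with mural markers (933) and 1 with microglial markers (163) as a covariate. Within the 16 libraries of ZT2, ZT10, ZT14 and ZT22 it was 1 (176), and within the 8 of ZT6 and ZT18 it was 0 (9). When 1 mouse was left out, 3 to 6 members passed (1831 to 2104 of all genes). Members passing were 3 without the first control mouse of ZT2, the second of ZT14, or, of the mutants, the second of ZT6, either of ZT10, the second of ZT14, the second of ZT18 or either of ZT22. Of 4 members that differed between ZT6 and ZT18 and the other times (2890 of all genes), 1 passed with mural markers (603 of all genes) and 0 with microglial markers as a covariate. With microglial markers Hes1 stayed at 1.06 but its standard error was 0.93 (edgeR adjusted p = 1), and Dll4 was 0.21, Jag1 0.044 and Heyl 0.033. The microglial fit was chosen after seeing the data and called 0 of 15493 genes (437 at an unadjusted p under 0.05, edgeR). Those markers separate the 2 library series fully, so the fit can hardly tell series from markers. Why the calls were lost was not tested.

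Genotype differences that changed sign were small. Within the 16 libraries Notch4 was -0.031, Dll4 0.0043, Jag1 -0.010 and Jag2 -0.11, within the 8 Hes1 was -0.063 and Heyl 0.15, and with the i5 index as a covariate Heyl was 0.12. Leaving out 1 mouse gave -0.0073 to 0.070 for Notch4, -0.017 to 0.073 for Jag1 and -0.00080 to 0.087 for Jag2. For ZT6 and ZT18 against the other times, mural markers gave -0.013 for Notch1, -0.10 for Notch4, -0.039 for Jag1 and -0.030 for Rbpj, and microglial markers gave -0.78 (Notch1), -0.34 (Notch4), -0.36 (Jag2) and -0.49 (Rbpj). Notch4 was -0.015 with 10 or more reads in every library, and leaving out 1 mouse gave -0.0020 to 0.072 for Notch4 and -0.0067 to 0.14 for Rbpj. The cause was not tested. Of the 32 relations with marker lists, 13 passed over 24 libraries, 12 without the 2 farthest, 1 within the 16, 0 within the 8 and 0 in deviations from group means, where the exact swaps of mice within pairs were chosen after seeing the data. The share of all genes passing was not counted for any of these settings.

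Replicate numbers did not pair the mice (correlations of deviations from -0.01 to 0.04 at the 6 times). With the replicate number as a block, 0 members passed for genotype, 6 between time points, 4 between ZT6 and ZT18 and the others, and 0 for rhythm. Mice per genotype and time (2) limit what can be seen at a single time.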
